A study of Mus musculus with 16 samples.

Results

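Whether the miRNA response of skin to chronic UV exposure depends on PPARβ/δ was addressed by an interaction contrast, the UV effect in Ppard+/+ skin minus the UV effect in Ppard-/- skin. The contrast used all 16 arrays of the series and covered the 225 mouse miRNAs that were detected on 4 of 4 arrays of at least 1 group, out of 567 mouse miRNAs on the array. Dorsal skin came from hairless mice on a mixed background (SKH1-C57/Bl6-SV129), according to the methods females 8 to 12 weeks old, and littermates with respect to genotype. The methods do not state whether that age holds at the start of irradiation or at sampling. They describe the non-irradiated controls as sham-manipulated mice of matched age. The 4 groups of 4 arrays were Ppard+/+ without irradiation (WT no UV), Ppard-/- without irradiation (KO no UV), and both genotypes after 12 weeks of UVB at 70 mJ/cm2, given 3 times a week (WT UV and KO UV). The mutant lacks Ppard in the germ line and so in every cell of the skin, and the irradiated skin was sampled away from visible lesions. The arrays carry no probe for Ppard, so genotype labels could not be checked against the target gene. The labels give each array a replicate number without stating that it is a separate animal, although the methods name 4 animals per group, so that p-values measure the spread between these samples.

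PPARβ/δ is a ligand-activated nuclear receptor, encoded by Ppard, that is expressed in keratinocytes and takes part in their survival, differentiation and wound response. A mature miRNA is a short RNA that guides a repressor complex to messenger RNAs, which it recognizes mainly through its seed, bases 2 to 8. One hairpin can give a mature strand from each arm, and the array marks the minor strand with an asterisk. UVB damages DNA in keratinocytes and is followed by a p53 response, inflammation and thickening of the epidermis, and several miRNAs used below are known from these processes. In bulk skin, fewer cells of a type and less miRNA per cell cannot be told apart.

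The mature sequences below (RefSeq, GRCm38.p6, 5′ to 3′, seed in capitals) are those of the 4 miRNAs called in the interaction, followed by miR-221 and miR-222, whose interaction was negative. Of the 26 miRNAs named under the naming rule, 17 were matched to a mature sequence in that table.
miR-136: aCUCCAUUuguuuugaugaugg
miR-379: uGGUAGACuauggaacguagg
miR-127: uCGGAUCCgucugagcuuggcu
miR-126-3p: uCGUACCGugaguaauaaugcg
miR-221: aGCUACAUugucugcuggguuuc
miR-222: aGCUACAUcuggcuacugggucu
The 4 called miRNAs had 4 different seeds. MiR-221 and miR-222 shared the seed GCUACAU and were the only 2 of the 17 with a seed in common. The array files place miR-127 at chr12:110831102-110831119, miR-136 at chr12:110833541-110833562, miR-379 at chr12:110947280-110947295 and miR-126-3p at chr2:26446925-26446943 (mm9). The first 3 lie in the Dlk1-Dio3 region, an imprinted domain whose miRNAs are transcribed from the maternal chromosome, and miR-126-3p is best known from endothelial cells.

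Values are log2 of the quantile-normalized signal, with signals under a floor of 19.4 units (log2 4.28) set to it. The total signal of an array, before normalization, was itself part of the interaction. In WT it ranged from 170979 to 265981 without irradiation and from 223198 to 313107 after it, and in KO from 254694 to 395200 and from 200905 to 231139. On the log2 scale its interaction was 0.87 (exact permutation of genotype within irradiation state, two-sided, p = 0.00163, adjusted over 2 measures 0.00327). The number of detected mouse miRNAs moved the same way, with an interaction of 32 (exact permutation p = 0.0110, adjusted 0.0110). Normalization removes this shift: the median interaction of the 225 miRNAs was -0.002 after quantile normalization and 0.78 with no normalization, so that each difference below is relative to the other miRNAs of the array. Each slide held 1 irradiation state, and an effect that a slide adds to both genotypes cancels in the interaction. The irradiated slide was noisier. Its local background was 119.4 to 130.3 units against 63.3 to 65.8, and its negative control SD 9.10 to 10.3 against 3.66 to 4.25. Such a difference is not additive and need not cancel for miRNAs near the floor, and detection with and without irradiation did not have equal sensitivity. Its effect on the interaction was not tested. On the irradiated slide the WT arrays all lay in row 1 and the KO arrays in row 2, where genotype and row cannot be told apart. Over the 167 miRNAs detected on all 16 arrays, 6 of the 16 arrays were nearer the mean of the other genotype in their irradiation state than the mean of the other arrays of their own group. One of the 6, WT no UV replicate 2, was nearer the KO no UV mean (root mean square distance 0.28) than the mean of the other WT no UV arrays (0.38), and results whose call changes without it are given both ways.

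The interaction called 4 of 225 miRNAs (1.78%) at an adjusted p under 0.05, all 4 positive, which means a UV effect higher in WT than in KO. At an unadjusted p under 0.05 there were 28 (12.4%), of which 18 were positive (8.00%) and 10 negative (4.44%). These shares include the members of each list set beside them below. Over all tested miRNAs the interaction was positive for 99, negative for 115 and 0 for the 11 that lay at the floor on all 16 arrays. The middle of the distribution was narrow, with quartiles at -0.17 and 0.18, and 6 miRNAs had an interaction of at least 1 log2 unit either way. Exact permutation of genotype within irradiation state gave p-values under 0.05 for 21 miRNAs, 20 of them among the 28, and no call after adjustment. WT and KO had UV effects of opposite sign in 11 of the 28 and in 44 of the 225.

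**Figure D1:**
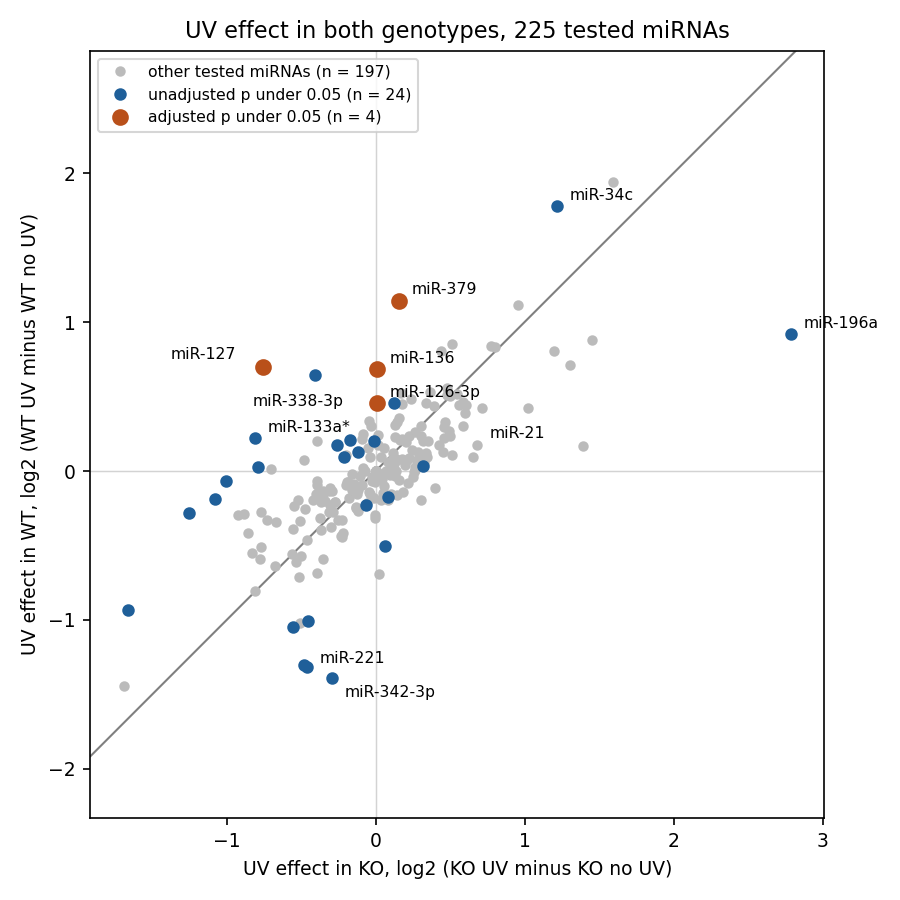
UV effect in WT (vertical axis) against UV effect in KO (horizontal axis), both in log2 units, for the 225 tested miRNAs; the diagonal marks equal effects, and vertical distance from it is the interaction. The 4 called miRNAs lie above the diagonal, with a UV effect in KO between -0.76 and 0.16, and miR-196a lies farthest below it, at an interaction of -1.87.

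MiR-136 was at the floor in non-irradiated skin of both genotypes and clearly above it in WT UV alone, with 1 KO UV array just over it. All 4 WT no UV arrays and all 4 KO no UV arrays read 4.28, WT UV arrays read 5.19, 4.95, 5.02 and 4.69 (replicates 1 to 4), and KO UV arrays read 4.28, 4.28, 4.28 and 4.31. The WT UV arrays stood above all 12 other arrays. With a UV effect of 0.68 in WT against 0.01 in KO, the interaction was 0.68 (SE 0.10, limma adjusted p = 0.00436). The floor left no spread in either non-irradiated group, which narrows this SE. By exact permutation its unadjusted p was 0.0286. It was detected on 1 WT array without irradiation and 4 after it, and on 2 and 0 KO arrays. It entered the test through WT UV alone, the group where it was high, so the rule used these detection calls and they lend the interaction no support. Of the 225 miRNAs, 24 entered through 1 group alone. With each KO UV array entered at its lowest detected signal, or at that of miR-136 if higher, WT UV was 2.01-fold above KO UV. This allows for no error, and an undetected signal can exceed that level, so it is not a strict bound.

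MiR-379, from the same imprinted domain, was also highest in WT UV. WT no UV arrays read 4.62, 4.69, 4.28 and 4.28, and KO no UV arrays read 4.86, 4.28, 4.31 and 4.28. After irradiation WT read 5.75, 5.51, 5.75 and 5.42, and KO read 4.51, 4.53, 4.44 and 4.86. The genotypes overlapped without irradiation and were separate after it. With a UV effect of 1.14 in WT against 0.16 in KO, the interaction was 0.99 (SE 0.21, limma adjusted p = 0.0342; exact permutation p = 0.0208). It was detected on 2 WT arrays without irradiation and 4 after it, and on 3 and 0 KO arrays. It entered the test through WT UV alone, so these detection calls lend the interaction no support. The KO UV values are thus signals that were not called detected. As a description of the same signals, the mean was 2.03-fold higher in WT UV than in KO UV, with no allowance for error.

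MiR-127, which is encoded antisense to the retrotransposon-derived gene Rtl1, had the largest positive interaction of the 225, 1.45 (SE 0.32, limma adjusted p = 0.0342; exact permutation p = 0.0110). It read 5.42, 5.37, 4.51 and 5.05 in WT no UV and 5.72, 5.66, 6.05 and 5.70 in WT UV. In KO it read 5.79, 4.72, 5.26 and 5.05 without irradiation and 4.28, 4.69, 4.38 and 4.44 after it. The irradiated arrays lay above all non-irradiated arrays in WT and below all of them in KO, with UV effects of 0.70 and -0.76, whereas the genotypes overlapped without irradiation. It was detected on 4 of 4 arrays of every group except KO UV, where 1 array detected it.

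MiR-126-3p was the only 1 of the 4 called miRNAs detected on all 16 arrays, and the only 1 whose genotype difference was on the non-irradiated side. WT no UV arrays read 10.79, 10.89, 10.61 and 10.79, and KO no UV arrays read 11.04, 11.10, 11.27 and 10.97. After irradiation WT read 11.33, 11.20, 11.27 and 11.10, and KO read 11.10 on all 4 arrays, which held the same rank and were tied by the normalization. KO minus WT was 0.33 without irradiation, with no overlap, and -0.12 after it, with overlap. The interaction was 0.45 (SE 0.10, limma adjusted p = 0.0342; exact permutation p = 0.00204). The tie left no spread in KO UV, which narrows this SE. Array omissions aside, miR-126-3p was called in 3 of 15 alternatives. The other strand of its hairpin, miR-126-5p, had an interaction of 0.31 (SE 0.40, limma adjusted p = 0.827).

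**Figure D2:**
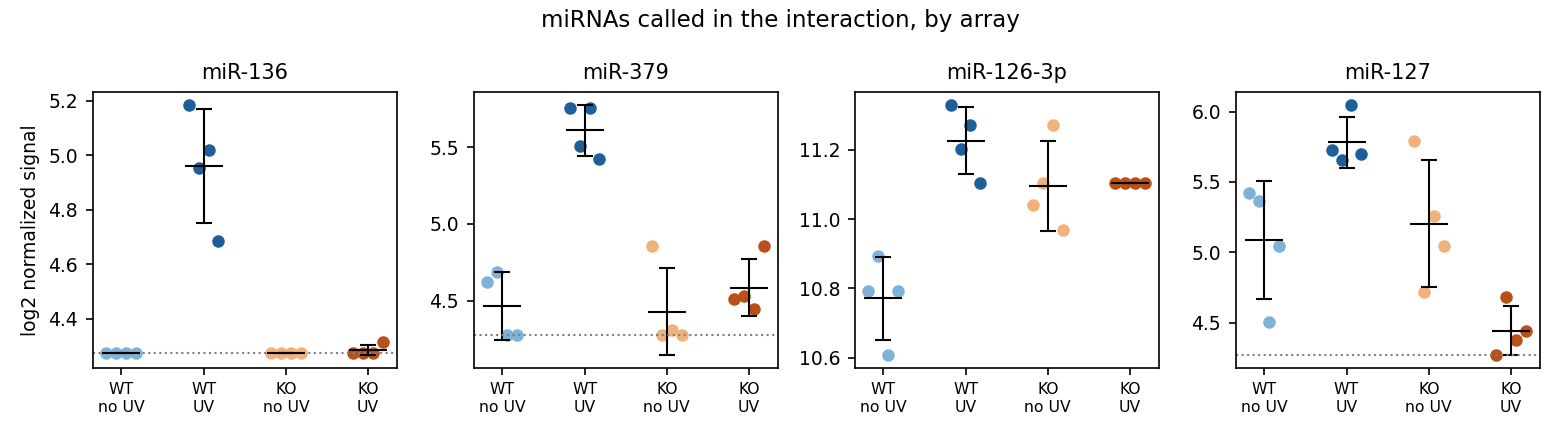
Log2 normalized signal of the 4 called miRNAs on the 4 arrays of each group (points), with group means and SDs (bars) and, where it falls in the panel, the floor at 4.28 (dotted line). MiR-136, miR-379 and miR-127 are lower on every KO UV array than on any WT UV array, and miR-126-3p is lower on every WT no UV array than on any KO no UV array.

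These 4 calls depended on how the arrays were scaled and modelled. With slide row as a covariate, with normexp on the spot signals, with scaling to the 75th percentile over miRNAs that every array detected, or by exact permutation, 0 were called. When each array was left out in turn, the calls of miR-136 held 15 of 16 times and those of miR-379 8 times, while miR-126-3p and miR-127 held 4 times each; the highest adjusted p-values were 0.0533, 0.182, 0.103 and 0.103.

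**Figure D3:**
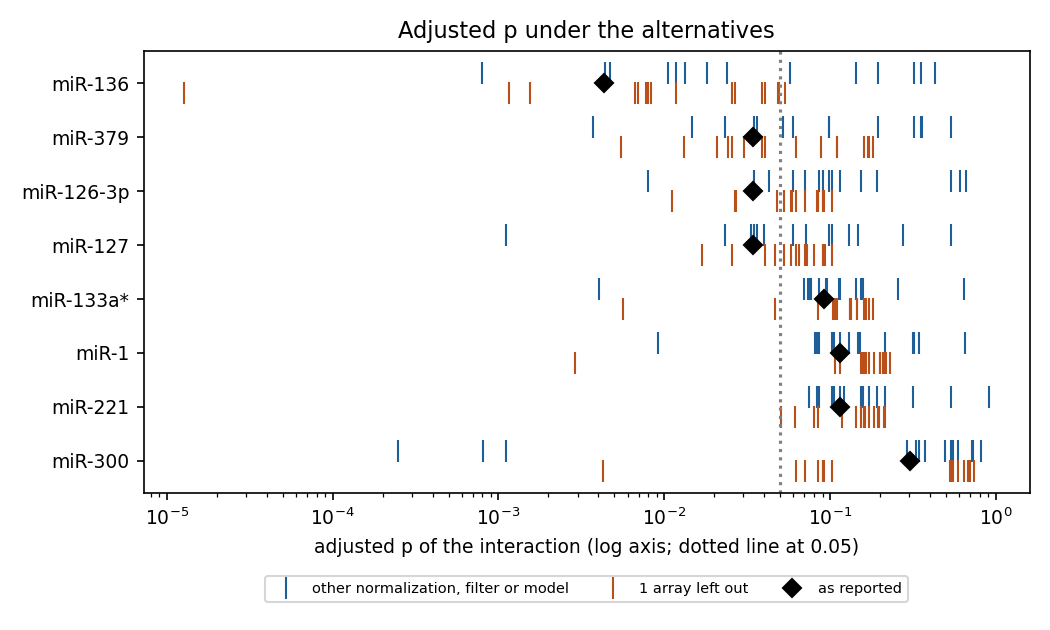
Adjusted p of the interaction (log axis, dotted line at 0.05) for the 4 called miRNAs and for miR-133a*, miR-1, miR-221 and miR-300, as reported (diamonds), under the other normalizations, filters and models (upper ticks) and with 1 array left out (lower ticks). Each of the 4 called miRNAs has ticks on both sides of the line, and miR-221 has none left of it.

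Beyond these 3, the Dlk1-Dio3 domain gave little that could be measured. Of its 73 miRNAs on the array 9 were tested, 8 with a positive and 1 with a negative interaction, and their median was 0.21 against -0.002 over all tested miRNAs. The 3 calls compare with 1.78% of all tested miRNAs, and the 4 positive members at an unadjusted p under 0.05 with 8.00%. Both shares include these members themselves. MiR-136 and miR-379 entered the test only through WT UV, where they were high, so the comparison lends the domain no support. MiR-300 was the fourth of these, at 0.21 (SE 0.08, limma adjusted p = 0.303). It was at the floor in all KO UV and all WT no UV arrays and read 4.57, 4.41, 4.66 and 4.28 in WT UV, so that its size depends on the floor. With a floor of 1 signal unit its interaction was 1.65 (limma adjusted p = 0.000246), and in the authors' own normalized table it was 1.05 (limma adjusted p = 0.000811). These 2 were among the 3 of 14 alternatives, array omissions aside, that called it. Its interaction ranged from 0.16 to 1.65 over the 14, and it was detected on 0 KO UV arrays. MiR-370 had an interaction of 0.49 and miR-770-3p of 0.18, while miR-134 and miR-487b, at 0.05 and 0.001, were near 0, and miR-494 was at -0.25 (limma adjusted p between 0.656 and 1 for the 5).

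Of the 12 lists described here, that of skeletal muscle miRNAs had the highest median interaction; they are known as myomiRs because muscle fibres hold most of them. All 5 tested members had a positive interaction, from 0.59 to 1.03 with a median of 0.93. Of the 5, 4 had an unadjusted p under 0.05, but none passed the adjustment. The share of all tested miRNAs in that direction was 8.00%, which includes these members themselves. MiR-133a* was at 1.03 (SE 0.27, limma adjusted p = 0.0914), miR-133a, from the other arm of the same hairpin, at 0.97 (SE 0.28, adjusted p = 0.115), miR-133b at 0.89 (SE 0.24, adjusted p = 0.0994), miR-1 at 0.93 (SE 0.28, adjusted p = 0.115) and miR-206 at 0.59 (SE 0.43, adjusted p = 0.634). MiR-499, the remaining member, did not meet the detection rule.

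The myomiRs had their highest group means in KO no UV, where they overlapped WT no UV, for 4 of the 5 through WT no UV replicate 2 alone. MiR-133a read 12.53, 12.53, 13.25 and 12.44 in KO no UV, and 11.73, 12.44, 11.50 and 12.09 in WT no UV. After irradiation it read 11.73, 11.58, 11.58 and 11.73 in WT and 11.42, 11.50, 11.42 and 11.42 in KO, where the genotypes did not overlap. In this it differed from miR-1, miR-133a*, miR-133b and miR-206, whose irradiated genotypes overlapped. MiR-206 was higher in KO UV than in WT UV, by 0.23. The median of the 5 KO minus WT differences was 0.75 without irradiation and -0.22 after it. The summed normalized signal of the list was 40908.5 to 50723.1 in KO no UV and 20578.5 to 41434.4 in WT no UV, where the highest array was replicate 2 and the next was at 26998.2. After irradiation it was 22100.5 to 26220.2 in WT and 19643.5 to 24710.2 in KO. Their defining members were thus well above background in every group, and how much muscle each piece of skin held was not tested.

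WT no UV replicate 2 decided whether the myomiRs were called. Its miR-133b read 13.36, against 12.53 to 12.72 on the other 3 WT no UV arrays and 13.25 to 13.88 in KO no UV. Without it, miR-1 (1.19), miR-133b (1.07), miR-133a* (1.22) and miR-133a (1.12) were called, at limma adjusted p-values of 0.00290, 0.00402, 0.00561 and 0.0170, and the number of calls was 11 in place of 4, the others gained being miR-196a, miR-143 and miR-30a. Without any other single array 1 of the 4 was called once, miR-133a* without KO no UV replicate 4 (1.16, limma adjusted p = 0.0466). Of the 28 miRNAs with an unadjusted p under 0.05, this array was nearer the KO no UV mean than the mean of the other WT no UV arrays for 18. It lay within the KO no UV range for 23 of the 28 and within the range of the other WT no UV arrays for 12. The 28 were selected with this array included, and the same counts are not given for other arrays or for all tested miRNAs. By the distance given above, 6 of the 16 arrays were nearer the other genotype. That is another measure, and whether the 18 set this array apart was not tested.

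MiRNAs of proliferation and wounding had interactions of the opposite sign, each tested member having a higher UV effect in KO. All 5 were negative, from -0.86 to -0.50 with a median of -0.59, and 2 of the 5 had an unadjusted p under 0.05, against 4.44% of all tested miRNAs in that direction; none passed the adjustment. MiR-221 and miR-222, which come from one X-linked transcript and share a seed, repress the cell cycle inhibitor p27 and the receptor Kit. MiR-221 (chrX:18723433-18723452) read 10.33, 9.88, 10.09 and 10.14 in WT no UV, above all KO no UV arrays at 9.43, 9.72, 8.82 and 9.80. It read 8.62, 9.01, 8.72 and 8.82 in WT UV and 9.01, 8.97, 8.91 and 9.05 in KO UV. The UV effects were thus -1.32 (WT) and -0.46 (KO), and the interaction was -0.86 (SE 0.25, limma adjusted p = 0.115; exact permutation p = 0.00204). MiR-222 (chrX:18724029-18724042) had UV effects of -1.30 and -0.48 and an interaction of -0.82 (SE 0.29, limma adjusted p = 0.213).

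The other tested members of that list, miR-31, its minor strand and miR-21, are raised in hyperplastic epidermis. MiR-31 had an interaction of -0.59 (SE 0.34, limma adjusted p = 0.549) and miR-31* of -0.57 (SE 0.37, adjusted p = 0.586), with UV effects of 0.71 and 0.88 in WT against 1.30 and 1.45 in KO. Of their WT no UV arrays, replicate 1 was the highest, at 10.02 for miR-31 against 8.72 to 9.01 on the other 3. All 5 members were lower in KO than in WT without irradiation, with a median difference of -0.65, and the median after irradiation was 0.11. For all tested miRNAs the median was 0 in both states, and the share lower in KO is not given. MiR-21 is counted here although its values were limited by rank, as given below. With no normalization the list's median turned to 0.24, which is below the median of 0.78 of all tested miRNAs.

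MiR-21, the guide strand of the hairpin that the study follows, was among the brightest miRNAs and was limited by rank ties. It read 14.59, 13.88, 14.59 and 14.59 in WT no UV, 14.59 on all 4 WT UV arrays, 13.58, 13.88, 13.58 and 13.88 in KO no UV, and 14.59, 14.59, 14.59 and 13.88 in KO UV. The value 14.59 is the top of the scale, which the normalization gives to the brightest miRNA of each array, so a higher level could not have been read. MiR-1 held that value on all 4 KO no UV arrays and on WT no UV replicate 2, so miR-21 could read at most 13.88 there. The miR-21 difference without irradiation thus cannot be told apart from the rank of miR-1. The interaction was -0.50 (SE 0.26, 95% interval -1.06 to 0.05, limma adjusted p = 0.504), and with WT no UV replicate 2 left out it was -0.69 (limma adjusted p = 0.0928). It was 0.41 with no normalization (limma adjusted p = 0.255), again under the shift of all miRNAs.

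MiR-21-3p, the passenger strand, did not exceed the floor on any of the 16 arrays and was compared in normalized signal units. In WT it averaged 9.15 ± 3.38 without irradiation and 9.04 ± 1.59 after it, and in KO 5.99 ± 2.47 and 1.79 ± 2.13 (SD, n = 4 each). Detection was called on 2 and 1 of the WT arrays and on 2 and 0 of the KO arrays. The interaction was 4.09 units in the direction of a UV effect higher in WT (exact permutation of genotype within irradiation state, two-sided, p = 0.290).

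**Figure D4:**
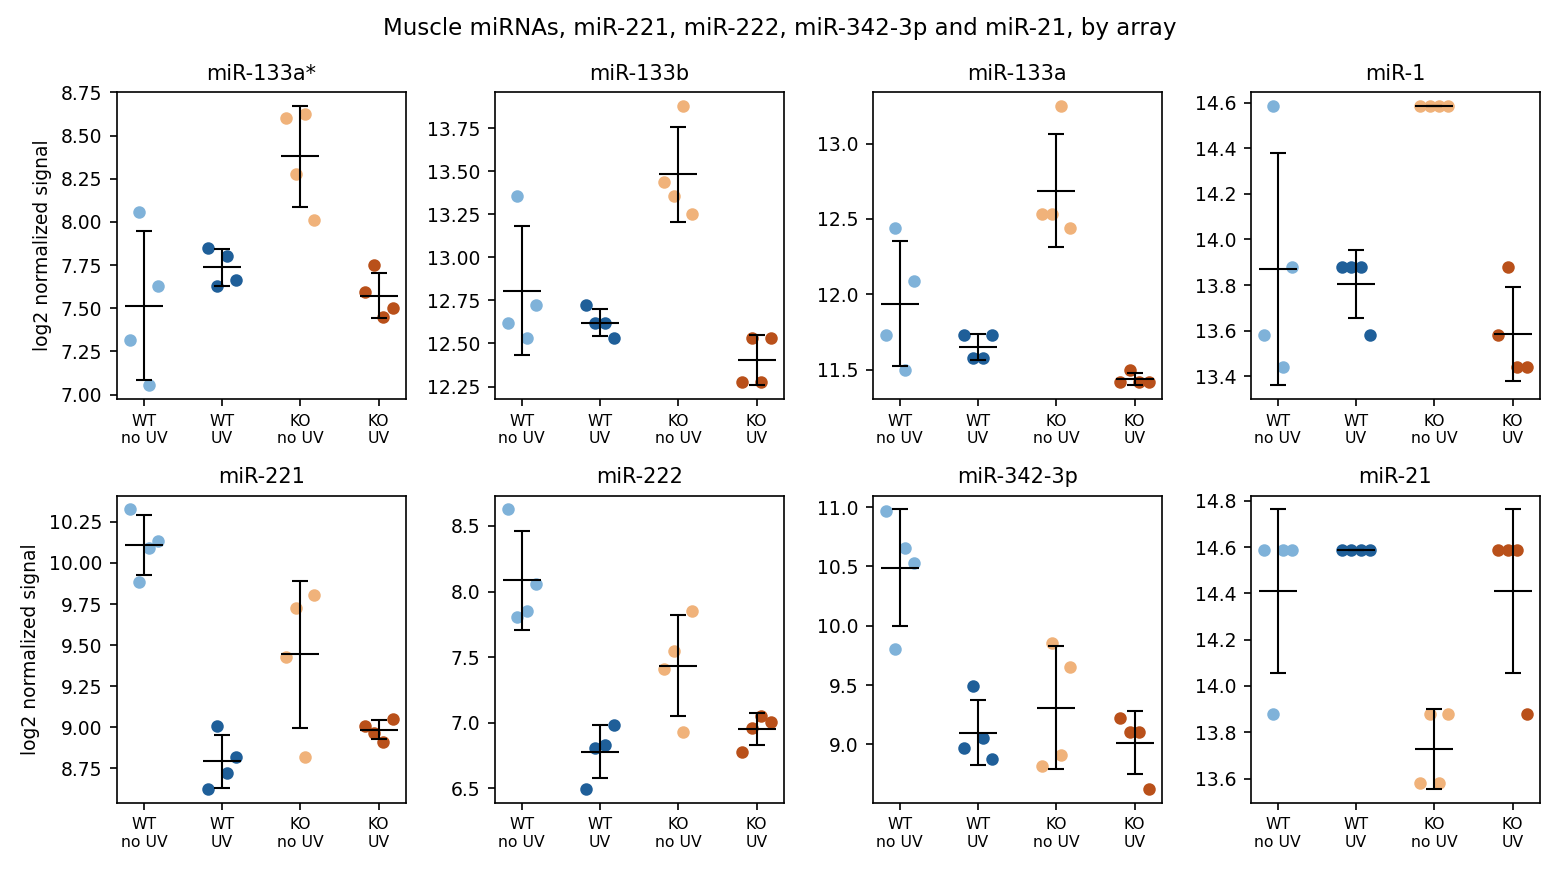
Log2 normalized signal of 4 muscle miRNAs (upper row) and of miR-221, miR-222, miR-342-3p and miR-21 (lower row) on the 4 arrays of each group (points), with group means and SDs (bars). KO no UV arrays are high in the upper row, WT no UV arrays are high for miR-221, miR-222 and miR-342-3p, and miR-1 and miR-21 are tied at 14.59 on several arrays.

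Leukocyte miRNAs also had a negative interaction in every tested case, although most were small. The 8 members ranged from -1.10 to -0.03 with a median of -0.26, and 2 had an unadjusted p under 0.05, against 4.44% of all tested miRNAs in that direction. MiR-342-3p (chr12:109896896-109896912), which is abundant in lymphocytes and lies outside the imprinted domain, read 10.97, 9.80, 10.65 and 10.53 in WT no UV and 8.97, 9.49, 9.05 and 8.88 in WT UV. In KO it read 8.82, 9.85, 8.91 and 9.65 without irradiation and 9.22, 9.11, 9.11 and 8.62 after it. WT no UV was the group that stood high, and replicate 2 was its lowest array. The interaction was -1.10 (SE 0.39, limma adjusted p = 0.233; exact permutation p = 0.0576), and -1.33 without that array (limma adjusted p = 0.0541). MiR-150, of mature lymphocytes, had UV effects of -1.05 (WT) and -0.56 (KO), with an interaction of -0.49 (SE 0.21, limma adjusted p = 0.336).

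All 8 leukocyte miRNAs were lower in KO than in WT without irradiation, with a median difference of -0.37, and 5 of 8 were lower after it, with a median of -0.14. Over all tested miRNAs the median difference was 0 in both states, and the share lower in KO is not given. MiR-155, induced in activated immune cells, was at -0.56 (limma adjusted p = 0.504), miR-146b at -0.29 and miR-146a at -0.22. The myeloid miR-223, at -0.03, and miR-142-3p, at -0.11, showed almost no interaction, so that the group did not move as one. The summed signal of the list in WT was 5826.19 to 7549.89 without irradiation and 4819.19 to 5562.77 after it, and in KO 3872.23 to 5895.54 and 4288.75 to 4906.63. With no normalization the median of the list was 0.56, below that of all miRNAs.

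The p53-responsive miR-34 family was measured by 3 of its 5 listed members. MiR-34c read 4.66, 4.28, 4.28 and 4.28 in WT no UV and 4.28 on all 4 KO no UV arrays, and it was far higher after irradiation, at 6.05, 6.05, 6.33 and 6.17 in WT against 5.66, 5.75, 5.31 and 5.26 in KO. Irradiated WT arrays stood above all irradiated KO arrays, with UV effects of 1.78 and 1.22. The interaction of 0.56 (SE 0.17) was not called (limma adjusted p = 0.115; exact permutation p = 0.0571). With a floor of 1 signal unit the direction turned, to -0.08 (limma adjusted p = 0.957). MiR-34b-5p, of the same transcript, was at 0.34 (SE 0.25, limma adjusted p = 0.656) and miR-34a, from another locus, at -0.32 (SE 0.20, adjusted p = 0.586).

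Among fibroblast and smooth muscle miRNAs, the clustered pair miR-143 and miR-145 stood apart from the rest of its list. MiR-143 was at 0.82 (SE 0.31, limma adjusted p = 0.263) and miR-145 at 0.73 (SE 0.30, adjusted p = 0.328), with the lowest group mean in KO UV for both. The irradiated genotypes overlapped, as KO UV replicate 4 was the highest irradiated array for both miRNAs. Without WT no UV replicate 2, miR-143 was at 1.02 (limma adjusted p = 0.0472), and without any other single array it was not called. MiR-145 read 6.58, 7.15, 6.50 and 6.60 in WT no UV and 5.85, 5.79, 5.91 and 5.54 in WT UV. In KO it read 7.27, 6.78, 7.32 and 7.09 without irradiation and 5.19, 4.98, 5.62 and 6.02 after it. The remaining 4 of the 6 tested members, of the miR-199 and miR-214 clusters of dermal fibroblasts, lay between -0.27 and 0.20. The list's median was 0.15, and none of its members was called with all arrays.

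Epidermal miRNAs showed little interaction in either direction. The 7 members ranged from -0.29 to 0.36 with a median of 0.04, and their median UV effects were 0.44 in WT and 0.39 in KO. MiR-205 (chr1:195333697-195333712), abundant in keratinocytes, was the 1 member with an unadjusted p under 0.05 (against 4.44% of all tested miRNAs in the negative direction), at -0.29 (SE 0.13, limma adjusted p = 0.371), and miR-203, which promotes keratinocyte differentiation, was at -0.28 (adjusted p = 0.731). The miR-200 family of epithelial cells was at 0.33 for miR-200a, 0.04 for miR-200b, 0.04 for miR-200c, 0.36 for miR-141 and 0.16 for miR-429 (limma adjusted p between 0.504 and 0.999). The summed signal of the list in WT was 21538.7 to 25476.8 without irradiation and 26080.6 to 31708.1 after it, and in KO 22224.6 to 27763.7 and 29319.7 to 43027, and all 7 members were detected on all 16 arrays.

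The remaining lists held 1 or no miRNA near the threshold. The 7 tested members of the miR-17-92 cluster, a promoter of proliferation, had a median of -0.11, from -0.39 to 0.16, and the lowest adjusted p was 0.449. The let-7 family, whose members restrain growth, had 9 tested members between -0.25 and 0.17, and the miR-29 family, which represses collagens, had 5 between -0.26 and 0.17. The 2 tested erythrocyte miRNAs, miR-451 and miR-486, were at 0.38 and 0.44 (limma adjusted p of 0.818 and 0.608). Summed erythrocyte signal in WT was 932.748 to 1398.25 without irradiation and 860.376 to 2184.09 after it, and in KO 1334.36 to 1808.86 and 746.8 to 2092.45.

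**Figure D5:**
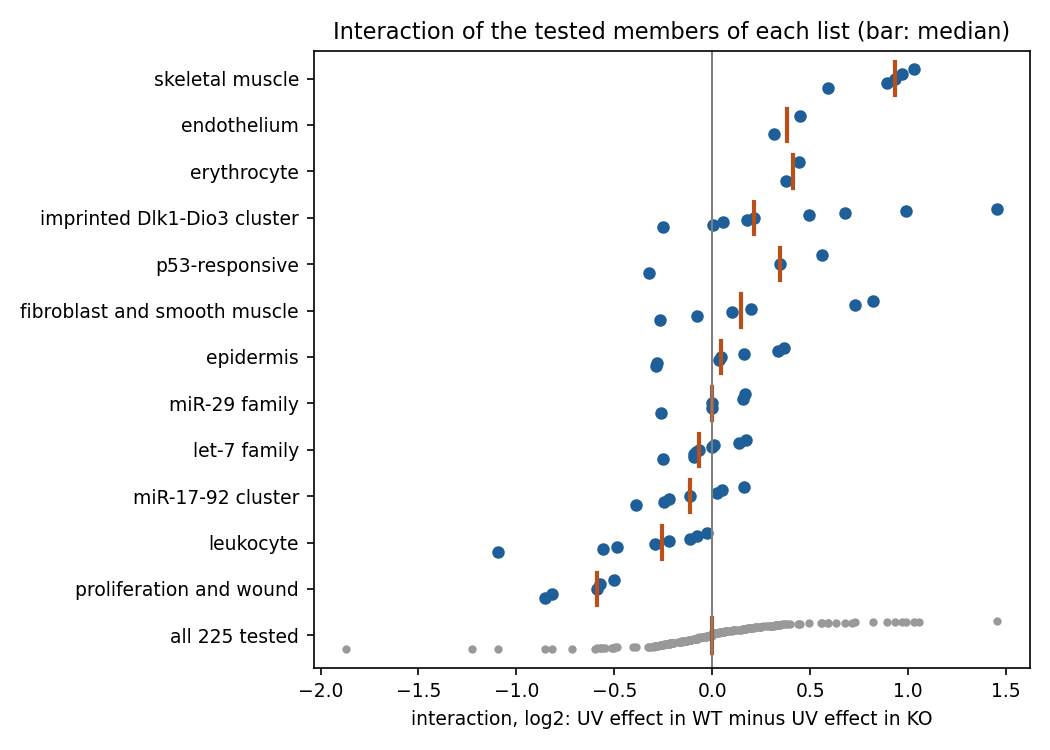
Interaction in log2 units (UV effect in WT minus UV effect in KO) of each tested miRNA of the 12 lists (points) and of all 225 tested miRNAs (bottom), with the median of each (bars). All 5 muscle miRNAs lie right of 0, and all 8 leukocyte and all 5 proliferation and wound miRNAs lie left of it.

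Outside the lists, miR-196a (chr11:96126501-96126522), a Hox cluster miRNA, had the most negative interaction of the 225, -1.87, but also one of the widest errors (SE 0.74, limma adjusted p = 0.303). It read 7.41, 4.28, 6.98 and 6.53 in WT no UV and 4.28 on all 4 KO no UV arrays, then 7.97, 6.86, 6.98 and 7.05 in WT UV and 7.05, 7.35, 6.53 and 7.32 in KO UV. WT no UV replicate 2 again lay with the KO no UV arrays, and without it the interaction was -2.38 (limma adjusted p = 0.00402). MiR-338-3p (chr11:119876095-119876115), known from nervous tissue, was at 1.05 (SE 0.36, limma adjusted p = 0.197), with KO UV arrays at 6.47 to 7.05, all under the WT UV arrays at 7.15 to 7.45.

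The rest of the named miRNAs had smaller interactions. On the positive side, miR-30e* was at 0.44 (SE 0.14, limma adjusted p = 0.139), miR-322, clustered with miR-503 and known to restrain the cell cycle, at 0.38 (SE 0.12, adjusted p = 0.139), and miR-10a, of the Hox clusters, at 0.25 (SE 0.10, adjusted p = 0.278). On the negative side, miR-24 was at -0.26 (SE 0.09, limma adjusted p = 0.256), miR-326 at -0.55 (SE 0.25, adjusted p = 0.371) and miR-149 at -0.57 (SE 0.26, adjusted p = 0.371). MiR-326 was detected on no KO UV array and 1 WT UV array. MiR-103, a qPCR reference of the study, was at -0.17 (SE 0.07, limma adjusted p = 0.328), with UV effects of -0.23 in WT and -0.06 in KO, and at 0.68 with no normalization (limma adjusted p = 0.0191), below the shift of all miRNAs. MiR-24 likewise turned to 0.74 with no normalization.

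The interaction can come from a genotype difference on either side of irradiation. Among the 28 miRNAs with an unadjusted p under 0.05, the KO minus WT difference was larger without irradiation for 16 and larger after it for 12, and over all 225 it was larger without irradiation for 123. The muscle miRNAs, miR-221, miR-222, miR-342-3p, miR-196a and miR-126-3p were of the first kind. MiR-136, miR-379, miR-127, miR-34c and miR-322 were of the second, with KO minus WT differences after irradiation of -0.68, -1.02, -1.34, -0.66 and -0.42, and of -0.10 to 0.12 without it.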

How the data were processed

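The deposited scanner files hold intensity values per miRNA from Agilent Feature Extraction 9.5.3.1 (per the labels), background-subtracted, each with a yes or no for detection. A deposited table of log2 values, which the authors normalized by an invariant set and quantiles per the methods, served as an alternative. Signals of 577 miRNAs (10 viral) on 16 arrays were quantile normalized, set to a floor of 19.4 (each array's 5th percentile among its detected miRNAs, median over arrays) and log2-transformed. This understates changes of dim miRNAs and ties bright ones by rank.

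A group-means model was fitted with limma 3.58.1 in R 4.3.3 (12 residual and 0.796 prior degrees of freedom), and Benjamini-Hochberg adjustment ran over 225 miRNAs. Adjusted p-values in the text are from this fit. Of the 342 mouse miRNAs not tested, 285 were detected on no array. Exact permutations used all 4900 relabelings, with a smallest p of 0.000408. For the fold differences of miR-136 and miR-379, a dim array entered with its lowest detected signal, or the miRNA's own if that was higher. Array number limits precision.

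Named were the called miRNAs, those at an unadjusted p under 0.05 (up to 15 positive and 15 negative), both miR-21 strands and miR-103; miR-145 and single list members are given as members of their lists. The contrast, the members and the lists were chosen with earlier results of these data known. Alternatives changed the normalization, signal, filter, floor, block, covariate, moderation, threshold, test and arrays; the model was tested on simulated data.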

Additional observations from a re-analysis of the deposited data

Results flagged for a closer look

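The interaction contrast called a UV effect that differed between genotypes for miR-136 (0.68), miR-379 (0.99), miR-126-3p (0.45) and miR-127 (1.45). These calls depended on scaling and model, and with slide row as a covariate none of them was made.

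Of the 106 sets of 4 arrays examined for a single distant array, 15 had one, where chance gives about 1 in 20; many of these sets held 3 values tied by the floor or by rank. At the floor, these were miR-136 in KO UV replicate 4 (4.31), miR-379 in KO no UV replicate 1 (4.86), miR-34c in WT no UV replicate 1 (4.66), miR-300 in KO no UV replicate 1 (4.31) and miR-326 in WT UV replicate 4 (4.47). Among bright miRNAs they were miR-133a in KO no UV replicate 3 (13.25) and KO UV replicate 2 (11.50), miR-1 in WT UV replicate 4 (13.58), miR-24 in WT no UV replicate 4 (13.06) and KO no UV replicate 3 (12.53), miR-103 in KO no UV replicate 1 (9.88), and miR-21 in WT no UV replicate 2 (13.88) and KO UV replicate 4 (13.88). The others were miR-322 in KO UV replicate 4, at 7.27 against 7.55 to 7.59, and miR-150 in WT UV replicate 4, at 5.58 against 6.19 to 6.23.

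Among the 10 viral miRNAs on the array, 3 met the detection rule, all of murine gammaherpesvirus, and the lowest adjusted p among them was that of mghv-miR-M1-2, whose interaction was -0.66 (limma adjusted p = 0.0474 over the 228 miRNAs then tested). The methods describe no infection of the mice, and whether these probes read viral RNA was not tested.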

How the results depend on the processing

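The count of 4 calls was 0 with the 75th percentile over miRNAs that every array detected, normexp, the miRNAs detected on all 16 arrays, slide row as a covariate, the methods' threshold on the adjusted p and exact permutation (24, 25, 16, 15, 28 and 21 miRNAs at an unadjusted p under 0.05). It was 1 with quantiles within slide, no filter and the replicate block, 2 with the 75th percentile of all miRNAs, the authors' series table and a floor of 1 signal unit, and 138 with no normalization; every call under these was positive. It was 5 with viral miRNAs included, 4 with trended robust moderation, 3 at the methods' threshold on the unadjusted p and 3 without the 11 miRNAs at the floor, an alternative chosen after seeing the data. With 1 array left out it ranged from 1 to 11, the highest without WT no UV replicate 2. Deviations from group means correlated over 0.1 in 15 of 24 same-numbered pairs of arrays (-0.35 to 0.38) and in 18 of 72 others, and in 16 of 48 comparisons an array correlated best with its own number in another group, so the numbers were not taken as pairs. The replicate block kept 1 of the 4 calls, miR-136 (adjusted p = 0.0181); miR-379, miR-126-3p and miR-127 were at 0.0978, 0.103 and 0.103. Slide as a block could not be fitted, since slide and irradiation coincide. Among the 26 named miRNAs no direction changed with an array left out. With no normalization 7 turned positive: miR-24 (0.74), miR-103 (0.68), miR-150 (0.42), miR-326 (0.060), miR-149 (0.22), miR-205 (0.61) and miR-21 (0.41); with a floor of 1 unit miR-34c turned to -0.078. The miR-21-3p interaction stayed positive and without a call, between 2.62 and 6.50 units. Causes were not tested. Signals near the floor limit the chromosome 12 miRNAs, and rank ties limit miR-21 and miR-1.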
